A study of Danio rerio with 28 samples.

Results

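The nuclear-encoded respiratory chain genes were taken as the 94 genes, of 32520 in the deposited count table, whose symbol begins with the name of a subunit of complexes I to V (nduf, sdh, uqcr, cyc1, cox4 to cox8 or atp5) and which do not lie on the mitochondrial genome. The symbol rule gave 35 members of complex I, 5 of complex II, 9 of complex III, 18 of complex IV and 17 of complex V. It also took 4 members of the ndufa4 family, 4 sdhaf genes, whose products assemble complex II, and the 2 genes atp5if1a and atp5if1b, whose products inhibit ATP synthase. The respiratory chain sits in the inner mitochondrial membrane. Complexes I and II pass electrons from NADH and succinate to coenzyme Q, complex III passes them to cytochrome c, complex IV passes them to oxygen, and complex V (ATP synthase) makes ATP from the proton gradient. Most subunits are encoded in the nucleus and imported, and a few core subunits are encoded in mitochondrial DNA, so each complex except II needs both genomes. In an early fish embryo the mitochondria come from the egg.

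The study captured new RNA from whole zebrafish embryos at stages around the onset of zygotic transcription. The embryos received s4UTP, a sulfur-bearing uridine nucleotide that enters RNA as it is made, and RNA carrying it was biotinylated and enriched on beads. In 24 libraries the RNA was then treated with iodoacetamide (IAA), which makes labelled positions readable as base changes. The counts used here do not separate labelled from carried-over unlabelled RNA, so "new RNA" below means RNA enriched for the label. The design text gives the question as the part that major transcription bodies, lost in the mutant, play when the zygotic genome is activated.

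The groups described here were mir430-/- embryos with injected miR430 (the mutant below) and wild type embryos, each at the 256c, 1024c, Oblong and Sphere stages, which makes 8 groups of 3 IAA libraries. All of them carried s4UTP, and poly(A) selection was left out for all. The labels name the miR430 injection for the mutant alone, so loss of the locus, injected miR430 and line background cannot be told apart. Replicates are labelled biological, but the clutches are not named. The p-values therefore measure the spread between these libraries, which may be technical. The 4 remaining libraries were wild type embryos at each stage without IAA.

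The IAA libraries held 4960211 to 13803137 counts, of which nuclear genes held 160889 to 4118874. Nuclear genes made up 5.17% ± 2.53 of counts in the mutant and 2.15% ± 0.804 in wild type at 256c, and 45.2% ± 14.8 in the mutant and 38.5% ± 24.9 in wild type at Sphere (SD, n = 3 each). All 7 maternal or early markers of the embryo and all 6 later zygotic markers were detected. Markers of organs that form later were at or near 0, with 1 count for the globin gene hbae1.1, 2 for ins, 6 for fabp10a, 22 for mbpa and 24 for myl7 over all 24 libraries. At 256c the summed level of the 6 later zygotic markers ranged from 126 to 844 CPM in the mutant and from 22.7 to 84.1 CPM in wild type. Most of that sum was mxtx2, at 383 of a mean of 412 CPM in the mutant and 47.9 of 48.2 CPM in wild type. CPM here are counts scaled to library size and, between libraries, by TMM, which assumes that most genes do not differ.

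New RNA of respiratory chain genes was scarce at every stage. The 94 members together held 297 to 4417 counts per library, and 49 to 87 of them had any count in a given library. In the mutant their share of nuclear counts over the 256c, 1024c, Oblong and Sphere stages averaged 0.167% ± 0.0389, 0.136% ± 0.0384, 0.128% ± 0.0117 and 0.110% ± 0.0327 (SD, n = 3). The wild type averages at the same stages were 0.214% ± 0.0335, 0.126% ± 0.0328, 0.137% ± 0.0304 and 0.118% ± 0.0291. The genotypes overlapped at every stage. On the TMM scale the summed level in the mutant was 157 ± 10.1 CPM at Sphere and 132 ± 28.7 CPM at 256c, and in wild type 153 ± 37.0 CPM at Sphere and 117 ± 11.9 CPM at 256c (SD, n = 3). The mean share of nuclear counts was lower at Sphere than at 256c in both genotypes, while the mean TMM-scaled sum was not. At Sphere, wild type replicate 1 stood apart, with nuclear genes at 12.9% of its counts and a summed level of 111 CPM, against 178 and 171 CPM in replicates 2 and 3. In whole embryos, fewer cells that make an RNA and less of it per cell cannot be told apart.

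**Figure D1:**
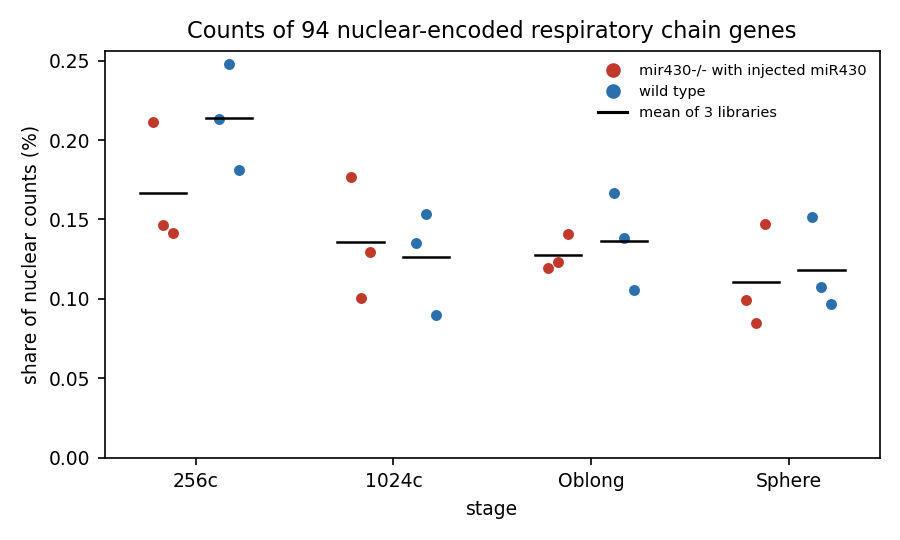
Share of nuclear counts (percent, y axis from 0) held by the 94 members in each of 24 IAA libraries, by stage, with the mutant left of wild type. Points are libraries and bars are means of 3. The means run between 0.110% and 0.214% and the genotypes overlap at each stage.

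The members differed widely in level. Averaged over the 24 libraries, 3 members reached at least 5 CPM, 37 lay between 1 and 5 CPM, and 54 were below 1 CPM, 16 of them below 0.1 CPM. The highest level was that of sdha, at 13.7 CPM, which encodes the flavoprotein subunit of succinate dehydrogenase (complex II), an enzyme that is also a step of the TCA cycle. It was followed by atp5f1b (7.82 CPM), which encodes the catalytic beta subunit of ATP synthase, and cox6b2 (6.49 CPM), a subunit of complex IV whose mammalian namesake is known from testis. Per kilobase of exon, which allows genes to be compared, atp5meb stood first at 7.04 CPM per kb, a small subunit of the membrane part of ATP synthase. Next came ndufa5 of complex I (5.70), cox7a2l of complex IV (4.93), whose mammalian product helps complexes III and IV associate, sdha (4.83) and atp5f1b (4.19). The highest member of complex III was uqcrq, at 1.44 CPM per kb. These means join both genotypes. Stage by stage from 256c to Sphere, atp5meb had 22.9, 13.5, 7.85 and 3.83 CPM per kb in the mutant. In wild type it had 0.551, 2.76, 1.85 and 3.08. There cox7a2l lay above it at every stage, at 1.41, 7.19, 4.56 and 8.26 CPM per kb.

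The genes of a complex differed in the level of RNA enriched for the label, which is not a measure of the amount made. Within complex II, sdha held 4.83 CPM per kb, while the iron-sulfur subunit gene sdhb held 0.714, sdhc 0.208, sdhdb 0.133 and sdhda 0.0380 CPM per kb. Within ATP synthase, the alpha subunit gene atp5fa1 held 1.86 CPM per kb against 4.19 for the beta subunit gene, and atp5f1e, the epsilon subunit gene, held 0.172 CPM per kb. The finished enzyme holds as many alpha as beta subunits.

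**Figure D2:**
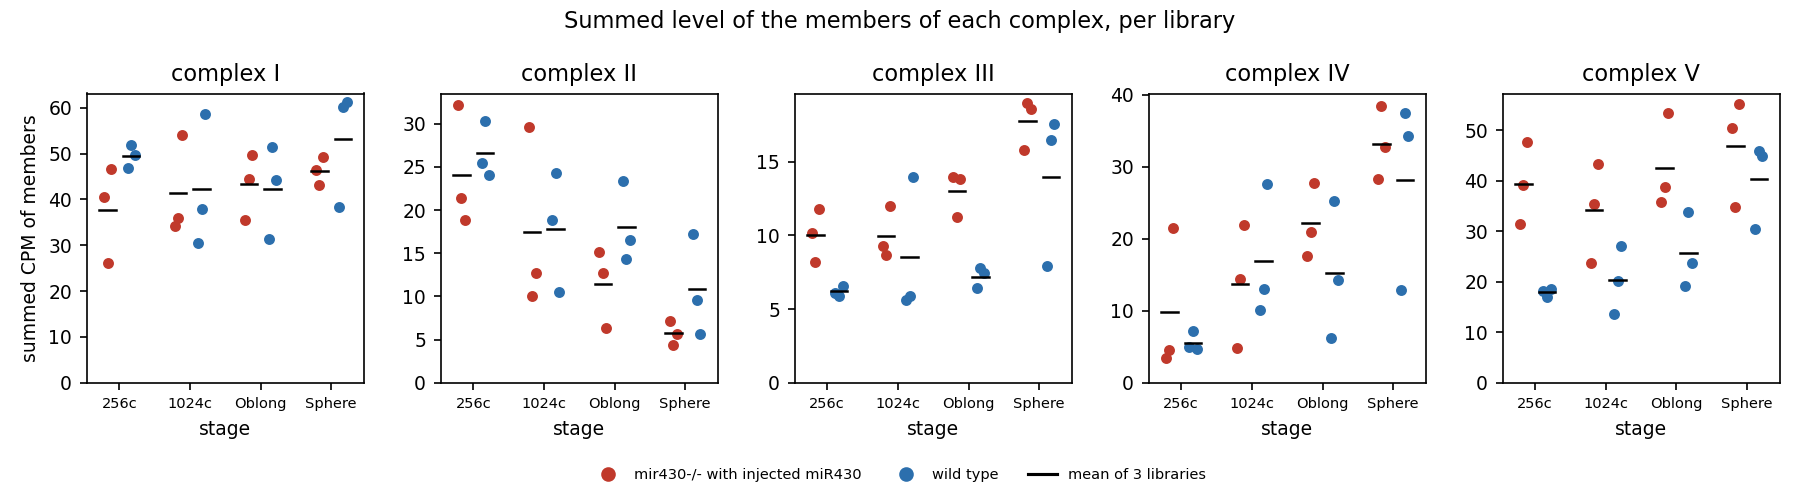
Summed CPM of the members of complexes I to V (y axes from 0, a scale for each panel) in each IAA library, with the mutant left of wild type at each stage and bars at the mean of 3 libraries. Complex IV is highest at Sphere, with means of 33.2 CPM in the mutant and 28.2 CPM in wild type, and complex II is lowest there, with means of 5.74 CPM in the mutant and 10.8 CPM in wild type.

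The make-up of the member counts differed between stages. Complex II held 3.65% ± 0.857 of member counts at Sphere and 19.1% ± 7.01 at 256c in the mutant, and 8.06% ± 6.53 at Sphere and 22.7% ± 1.59 at 256c in wild type (SD, n = 3). Complex IV held 21.2% ± 4.19 at Sphere and 6.76% ± 5.66 at 256c in the mutant, and 17.6% ± 5.17 at Sphere and 4.71% ± 0.745 at 256c in wild type. The leading gene differed between the ends of the course. At 256c sdha held 15.2% of all member counts in the mutant and 19.5% in wild type, and at Sphere atp5f1b held 10.8% in the mutant and 7.70% in wild type. The 5 most counted members held 31.6% of member counts at Sphere and 39.9% at 256c in the mutant, and 27.5% at Sphere and 40.5% at 256c in wild type.

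Several subunits have paired genes, and in several of them 1 gene held most of the counts. The cytochrome oxidase subunit 6b had 2291 counts over the 24 libraries for cox6b2 and 0 for cox6b1, which is the form used by most tissues in mammals. The gene cox6a2, which bears the name of the heart and muscle form, also had 0 counts, though the gene names used here give its identifier the symbol COX6A1. A count of 0 in 30711282 nuclear counts allows a share of up to 9.77e-06%, which covers counting error only. The forms cox7a1, cox8b and cox4i2, which are known from heart, muscle or lung in mammals, had 6, 2 and 14 counts, and ndufa4l2a and ndufa4l2b had 3 and 1. Their partners cox7a2l, cox7a2a, cox8a and cox4i1 had 1026, 273, 47 and 675 counts, and ndufa4l had 781. In complex I, ndufs8a had 854 counts and ndufs8b 12. In ATP synthase, atp5meb held 7.04 CPM per kb and its copy atp5mea 0.997. In wild type at 256c alone the mean of atp5mea was the higher, at 0.757 CPM per kb against 0.551. Both rest on few counts, and the libraries overlap, at 0.489, 0 and 0.775 CPM for atp5mea and 0, 0.653 and 0.388 CPM for atp5meb. In other pairs the gap was smaller. Levels were 1.17 and 2.65 CPM per kb for cox5aa and cox5ab, 0.656 and 0.385 for ndufa9a and ndufa9b, and 0.554 and 1.38 for uqcrc2a and uqcrc2b. They were 0.656 and 1.00 CPM per kb for atp5mc3a and atp5mc3b, and 1.18 and 0.687 for atp5if1a and atp5if1b. Reads that fit both genes of a near-identical pair could be split or dropped by the counting, so these splits are uncertain.

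For tests, 70 of the 94 members passed a filter on low counts that left 14732 genes. Of the other 24, 19 had fewer than 50 counts over all 24 libraries. All 9 complex III members were tested, 28 of 35 of complex I, 2 of 5 of complex II, 10 of 18 of complex IV and 15 of 17 of complex V, with 1 of 4 of the ndufa4 family, 3 of 4 sdhaf genes and both inhibitor genes. A member that passes only through a group where it is high is more likely to be called, so counts below refer to the 70 tested. Calls are those of edgeR's quasi-likelihood test at a Benjamini-Hochberg adjusted p under 0.05 over all genes tested, with log2 fold changes given as first-named over second-named group.

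At 256c, new RNA of the 3 members atp5meb, atp5po and ndufa5 was higher in the mutant than in wild type, and that of ndufs8a was lower. The other 66 tested members were not called. Over all genes tested, 6.6% were called higher and 2.87% lower in the mutant, against 4.29% higher and 1.43% lower among the members tested. The median log2 fold change was 0.20 over the members and 0.24 over all genes. The libraries also differed at this stage in the later zygotic markers given above and in nuclear depth, with 258302 to 634140 nuclear counts in the mutant and 160889 to 204534 in wild type. The part of either in these results was not tested.

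The gene atp5meb (chromosome 5, 9070382 to 9073433, minus strand, GRCz11) encodes subunit e of ATP synthase, which in mammals and yeast helps ATP synthase form dimers. It had 15.7, 16.1 and 11.4 CPM in the 3 mutant libraries, against 0, 0.653 and 0.388 CPM in wild type. The groups were far apart, with 68, 127 and 63 counts in the mutant and 0, 2 and 1 in wild type. The ratio of the summed counts, scaled for depth, was 47.2 (95% interval 16.0 to 230.2, counting error only), and the fitted log2 fold change was 5.45 (SE 0.94, adjusted p = 0.00112). It was called in each of the 6 fits that left out 1 of these libraries, with adjusted p up to 0.0114. The copy atp5mea had 0, 0.633 and 2.53 CPM in the mutant and 0.489, 0 and 0.775 CPM in wild type, which overlap (adjusted p = 0.519).

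The gene atp5po (chromosome 9, 33145522 to 33148873, plus strand) encodes OSCP, the subunit that ties the peripheral stalk of ATP synthase to its catalytic head. It had 1.16, 12.3 and 9.59 CPM in the mutant and 0.245, 0 and 0.388 CPM in wild type. The mutant library with the least was still above the highest wild type library, but it rested on 5 counts, against 97 and 53 in the other two. The count ratio was 42.5 (interval 11.6 to 354), and the fitted log2 fold change was 5.16 (SE 1.30, adjusted p = 0.0133). Without wild type 256c replicate 1 or 2 the adjusted p was 0.0675 or 0.0704.

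The gene ndufa5 (chromosome 4, 4930406 to 4932619, minus strand) encodes an accessory subunit of the matrix arm of complex I. Its counts were 1, 5 and 32 in the mutant and 0 in each wild type library (adjusted p = 0.0207). The summed mutant counts were at least 6.95-fold higher, a bound from 3 counts over the wild type group that covers counting error only. The mutant libraries stood apart from each other, at 0.231, 0.633 and 5.79 CPM. The adjusted p was 0.208 without mutant replicate 3, and 0.0902, 0.0737 or 0.0615 without wild type replicate 1, 2 or 3.

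The single fall was in ndufs8a (chromosome 1, 44814322 to 44823071, plus strand), which encodes a core iron-sulfur subunit on the electron path of complex I. It had 0.231, 1.01 and 1.63 CPM in the mutant and 9.29, 8.48 and 8.53 CPM in wild type. The wild type libraries lay close together, each more than the sum of the 3 mutant values. The log2 fold change was -3.14 (SE 0.61, adjusted p = 0.00231), and the call was kept in all 6 fits without 1 library, with log2 fold changes between -3.67 and -2.73. A further complex I gene, ndufa10, had 0.231, 0.759 and 6.88 CPM in the mutant against 0.489, 0 and 0 CPM in wild type, and missed the threshold (adjusted p = 0.0511). In fits by DESeq2, over nuclear genes alone, without the filter or scaled by library totals its adjusted p lay between 0.00467 and 0.0365.

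**Figure D3:**
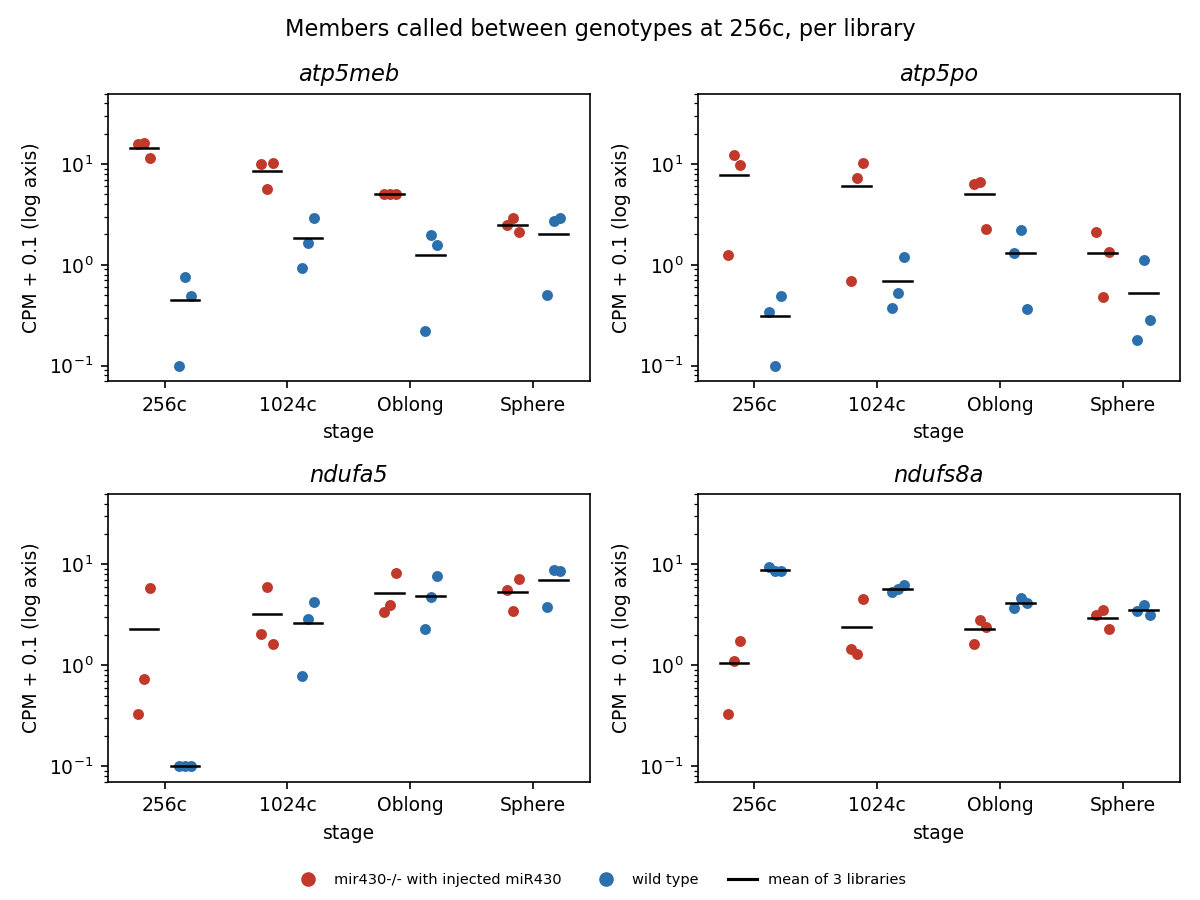
Levels of the 4 members called between genotypes at 256c, as CPM plus 0.1 on a log axis, in each IAA library by stage, with the mutant left of wild type and bars at the mean of 3 libraries. For atp5meb the means at 256c are 14.4 CPM in the mutant and 0.347 CPM in wild type, and those of ndufs8a are 0.958 CPM in the mutant and 8.77 CPM in wild type.

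The ATP synthase genes as a whole summed to 39.4 ± 8.08 CPM in the mutant and 17.9 ± 0.840 CPM in wild type at 256c (SD, n = 3), and the groups did not overlap. Without atp5meb and atp5po, which were left out after their values were seen, the sums were 17.4 ± 8.22 CPM in the mutant and 17.3 ± 0.882 CPM in wild type, so these 2 of its 17 genes made up the gap. Complex III summed to 10.1 ± 1.77 CPM in the mutant and 6.19 ± 0.365 CPM in wild type at 256c, also without overlap, though none of its 9 genes was called. Complex I summed to 37.8 ± 10.5 CPM in the mutant and 49.5 ± 2.47 CPM in wild type, here lower in the mutant. These groups were barely apart, with 46.7 CPM in the highest mutant library and 46.9 CPM in the lowest wild type library. That sum includes the called gene ndufs8a, with 0.231, 1.01 and 1.63 CPM in the mutant and 9.29, 8.48 and 8.53 CPM in wild type. The sum without ndufs8a was not taken. Among 3 against 3 libraries without a difference, 10% of comparisons do not overlap. Complex IV summed to 9.85 ± 10.1 CPM in the mutant, of which replicate 3 had 21.5, and 5.57 ± 1.39 CPM in wild type. The same mutant library held the highest value of ndufa5, ndufa10, cox6b2, cox7a2l and uqcrq.

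At the 3 later stages no member was called in either direction by edgeR. Over all genes tested, edgeR called 1.83% higher and 1.56% lower at 1024c, 0.774% higher and 0.923% lower at Oblong, and 0.394% higher and 0.706% lower at Sphere. At an unadjusted p under 0.05 there were 8 members at 1024c, 6 at Oblong and 5 at Sphere. No share of all genes was taken at an unadjusted p, here or below. DESeq2 called 2 members higher at 1024c, 1 lower at Oblong and 0 at Sphere. Of all 14732 genes it called 522 higher and 404 lower at 1024c, 324 and 267 at Oblong, and 144 and 175 at Sphere. The median log2 fold change was -0.07 over the members and 0.16 over all genes at 1024c, 0.20 and 0.24 at Oblong, and -0.11 and -0.01 at Sphere.

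The level of atp5meb was above wild type in every mutant library up to Oblong, without passing the threshold after 256c. At 1024c it had 9.87, 5.52 and 10.2 CPM in the mutant and 0.824, 1.54 and 2.84 CPM in wild type, which gave 2.32 on the log2 scale (SE 0.72, adjusted p = 0.0695, and 0.0306 by DESeq2). At Oblong it had 4.97, 4.97 and 4.89 CPM in the mutant and 0.121, 1.88 and 1.49 CPM in wild type (adjusted p = 0.154). The groups did not overlap at either stage. At Sphere they did, with 2.41, 2.81 and 2.003 CPM in the mutant and 0.398, 2.62 and 2.80 CPM in wild type (adjusted p = 0.993).

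The second ATP synthase gene, atp5po, had 0.598, 7.09 and 10.02 CPM in the mutant and 0.275, 0.421 and 1.09 CPM in wild type at 1024c. Here the groups overlapped because of mutant replicate 1 (log2 fold change 3.37, SE 1.05, adjusted p = 0.0713, and 0.0322 by DESeq2). Without that library the adjusted p was 0.0460. At Oblong it averaged 4.997 ± 2.47 CPM in the mutant and 1.1995 ± 0.933 CPM in wild type (SD, n = 3, adjusted p = 0.318).

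For ndufs8a the gap was narrower at each later stage. At 1024c it had 1.35, 1.18 and 4.45 CPM in the mutant and 5.22, 5.61 and 6.12 CPM in wild type (log2 fold change -1.26, SE 0.55, adjusted p = 0.226). At Oblong it had 1.54, 2.74 and 2.30 CPM in the mutant and 3.62, 4.58 and 4.02 CPM in wild type (adjusted p = 0.491). Each mutant library lay below each wild type library at both stages. At Sphere the values were 3.03, 3.42 and 2.17 CPM in the mutant and 3.34, 3.87 and 3.03 CPM in wild type, which overlap.

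The complex I gene ndufb10, which encodes an accessory subunit of the membrane arm, had lower levels in the mutant without being called. At Oblong it had 0.257, 0.428 and 0.370 CPM in the mutant and 1.57, 1.64 and 2.27 CPM in wild type (-2.34 on the log2 scale, SE 0.70, adjusted p = 0.0895). The libraries did not overlap, and the adjusted p was 0.0406 by DESeq2 and 0.0457 with the Oblong libraries alone. The members with most counts at that end of the course were not called. At Sphere, atp5f1b averaged 16.8 ± 7.12 CPM in the mutant and 12.3 ± 1.31 CPM in wild type (SD, n = 3), a difference of 0.44 on the log2 scale (SE 0.56, adjusted p = 0.931). For cox6b2 the means were 14.5 ± 3.13 CPM in the mutant and 9.13 ± 4.81 CPM in wild type (0.66, SE 0.74, adjusted p = 0.913). With 3 libraries a group, differences well above the standard error could be missed, as for ndufb10 at Oblong (-2.34, SE 0.70).

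The course of the members from 256c to Sphere was then compared. In the mutant, 17 of 70 tested members were called higher at Sphere and 10 lower. In wild type, 21 were called higher and 7 lower. Over all genes tested, 26.8% were called higher and 22.4% lower in the mutant, and 30.7% and 16.2% in wild type. Of the members tested, 24.3% were called higher and 14.3% lower in the mutant, and 21 and 7 of 70 in wild type, so the shares called higher lay near the background. The median log2 fold change was 1.11 over the members and 0.57 over all genes in the mutant, and 1.28 and 0.74 in wild type.

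These directions hold on the TMM scale. Scaled by library totals, which are mostly mitochondrial counts at 256c, the median of all genes moved to 2.85 in the mutant and 3.49 in wild type. On that scale 45 of the 70 tested members were called higher and 1 lower in the mutant, and 56 and 0 in wild type, so a fall below is a fall relative to most genes. Of all 14732 genes, 8735 were called higher and 90 lower in the mutant, and 9556 and 15 in wild type. DESeq2 called 28 members higher and 7 lower in the mutant, and 29 and 4 in wild type. Of all 14732 genes it called 5682 higher and 2664 lower in the mutant, and 5717 and 1945 in wild type. Single libraries moved the counts too. In the mutant, 10, 6 or 29 members were called higher without 256c replicate 1, 2 or 3, and 10 without Sphere replicate 2. In wild type, 11 or 12 were called higher without 256c replicate 1 or 3 and 11 without Sphere replicate 2, and 4, 3 or 3 were called lower without 256c replicate 2, Sphere replicate 2 or Sphere replicate 3.

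Complexes III and IV held called rises and no called falls. Of the 10 tested complex IV genes, 6 rose in the mutant and 4 in wild type, and of the 9 complex III genes, 3 rose in the mutant and 4 in wild type. Complex I went both ways, with 5 rises and 6 falls in the mutant and 9 rises and 5 falls in wild type among 28 genes. In complex V, 3 rose and 2 fell in the mutant, and 4 rose and 0 fell in wild type, of 15. In complex II, 1 of 2 tested genes fell in the mutant and none was called in wild type. The shares of all genes called higher were 26.8% in the mutant and 30.7% in wild type. With 9 and 10 genes tested in complexes III and IV, counts of 3 or 4 rises lie near those shares.

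Called rises shared by both genotypes numbered 10. No share of all genes was taken for calls in both genotypes, in a single genotype or in opposite directions. This count and those of that kind below therefore have no background to be read against. In complex IV the shared rises were cox6b2, cox4i1 and cox7c. cox6b2 had 11.7, 17.8 and 13.9 CPM at Sphere in the mutant, against 0.462, 1.90 and 8.51 CPM at 256c (log2 fold change 1.99, SE 0.79, adjusted p = 0.0392). Wild type embryos had 3.66, 12.7 and 11.03 CPM at Sphere, against 0.734, 0.979 and 0.775 CPM at 256c (3.45, SE 0.93, adjusted p = 0.00574). The libraries of the stages did not overlap in either genotype. The mutant call was lost without 256c replicate 1 or 2 (adjusted p = 0.151 or 0.146) and without Sphere replicate 2 or 3 (0.116 or 0.0568).

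In complex V the shared rise was that of atp5f1b. It had 17.3, 9.41 and 23.6 CPM at Sphere in the mutant, against 1.62, 1.77 and 2.35 CPM at 256c (log2 fold change 3.12, SE 0.63, adjusted p = 0.00108). Wild type embryos had 11.5, 11.6 and 13.8 CPM at Sphere, against 2.69, 3.26 and 5.82 CPM at 256c (1.67, SE 0.60, adjusted p = 0.0272). Each Sphere library exceeded each 256c library. The mutant call held in all 6 fits without 1 library, and the wild type call did not hold without 256c replicate 1 or 2 (adjusted p = 0.101 or 0.0831) or Sphere replicate 2 (0.0531).

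The shared rises of complex III were uqcrh, the hinge subunit that contacts cytochrome c, and uqcrc2a, a core subunit. Those of complex I were ndufb4, ndufb9, ndufs6 and ndufa3, all accessory subunits. Their levels stayed modest. At Sphere, ndufb4 averaged 1.66 ± 0.277 CPM in the mutant and 2.22 ± 0.721 CPM in wild type (SD, n = 3), with 2 counts in the mutant and 1 in wild type at 256c. The count ratios were 14.9 (interval 4.02 to 125, adjusted p = 0.00240) in the mutant and 22.9 (interval 4.04 to 911, adjusted p = 0.00216) in wild type. ndufa3 had 0 counts at 256c in both genotypes and was at least 2.90-fold higher at Sphere in the mutant and at least 2.29-fold in wild type. The wild type calls of uqcrh and ndufa3 were each lost in 5 of 6 fits without 1 library, and that of uqcrh also without the filter.

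Rises called in wild type and not in the mutant numbered 10, and 8 of these genes had 0 to 2 counts in wild type at 256c. None of the differences between the courses was called by edgeR. Complex I gave ndufa5 and ndufa10 among others. In the mutant ndufa5 had 5.49, 3.37 and 7.01 CPM at Sphere, against 0.231, 0.633 and 5.79 CPM at 256c, and was not called (adjusted p = 0.199). Wild type libraries had 3.66, 8.79 and 8.50 CPM at Sphere and 0 counts at 256c, which makes it at least 24.6-fold higher (adjusted p = 0.000728). For ndufa10 the mutant had 5.89, 5.24 and 6.68 CPM at Sphere and 0.231, 0.759 and 6.88 CPM at 256c, which overlap (adjusted p = 0.212). Wild type libraries had 3.82, 7.90 and 8.27 CPM at Sphere from 2 counts at 256c, a ratio of 34.9 (interval 9.61 to 289, adjusted p = 0.00182).

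The complex III gene uqcrq, which encodes a small subunit, had 1.68, 2.58 and 2.92 CPM at Sphere in the mutant, against 0, 0.127 and 2.17 CPM at 256c (adjusted p = 0.171). In wild type it had 0.716, 4.03 and 5.02 CPM at Sphere from 1 count at 256c, a ratio of 36.0 (interval 6.39 to 1428, adjusted p = 0.0114). For cox7a2l the mutant had 3.70, 3.93 and 4.17 CPM at Sphere and 0, 0.633 and 4.71 CPM at 256c, which overlap (adjusted p = 0.290). Wild type had 1.67, 8.22 and 6.51 CPM at Sphere, against 0, 1.63 and 1.16 CPM at 256c (log2 fold change 2.63, SE 1.04, adjusted p = 0.0399). That call was lost without 256c replicate 1 or 3 (adjusted p = 0.149 or 0.0728) and without Sphere replicate 2 or 3 (0.118 or 0.0770). The remaining 6 were ndufb5, ndufb8 and ndufs7 of complex I, uqcrb of complex III, and atp5md and atp5pf of complex V. With 0 counts in wild type at 256c, atp5md was at least 5.12-fold and uqcrb at least 4.85-fold higher at Sphere. Leaving out 1 library ended the wild type calls of uqcrb and atp5pf in 5 of 6 fits each, that of ndufb5 in 4 of 6 and that of atp5md in 3 of 6.

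Rises called in the mutant and not in wild type numbered 6. Among them was atp5fa1, the alpha subunit of ATP synthase, with 9.92, 5.81 and 3.26 CPM at Sphere, against 3.01, 1.77 and 1.45 CPM at 256c (log2 fold change 1.62, SE 0.62, adjusted p = 0.0324). The stages did not overlap, and the call was lost without 256c replicate 2 or 3 (adjusted p = 0.105 or 0.0927) or Sphere replicate 1 or 2 (0.154 or 0.0663). The others were atp5mf, cox5aa, cox6a1, cox7b and uqcrfs1, the Rieske iron-sulfur protein of complex III. For atp5mf the log2 fold change was 1.88 in the mutant (adjusted p = 0.0444) and 1.92 in wild type (0.0531), so only the call differed. Leaving out 1 library ended the mutant call of cox5aa in 5 of 6 fits, and those of atp5mf and cox7b in 4 of 6 each. uqcrfs1 averaged 3.78 ± 1.34 CPM at Sphere and 0.717 ± 0.403 CPM at 256c (SD, n = 3; adjusted p = 0.00567).

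**Figure D4:**
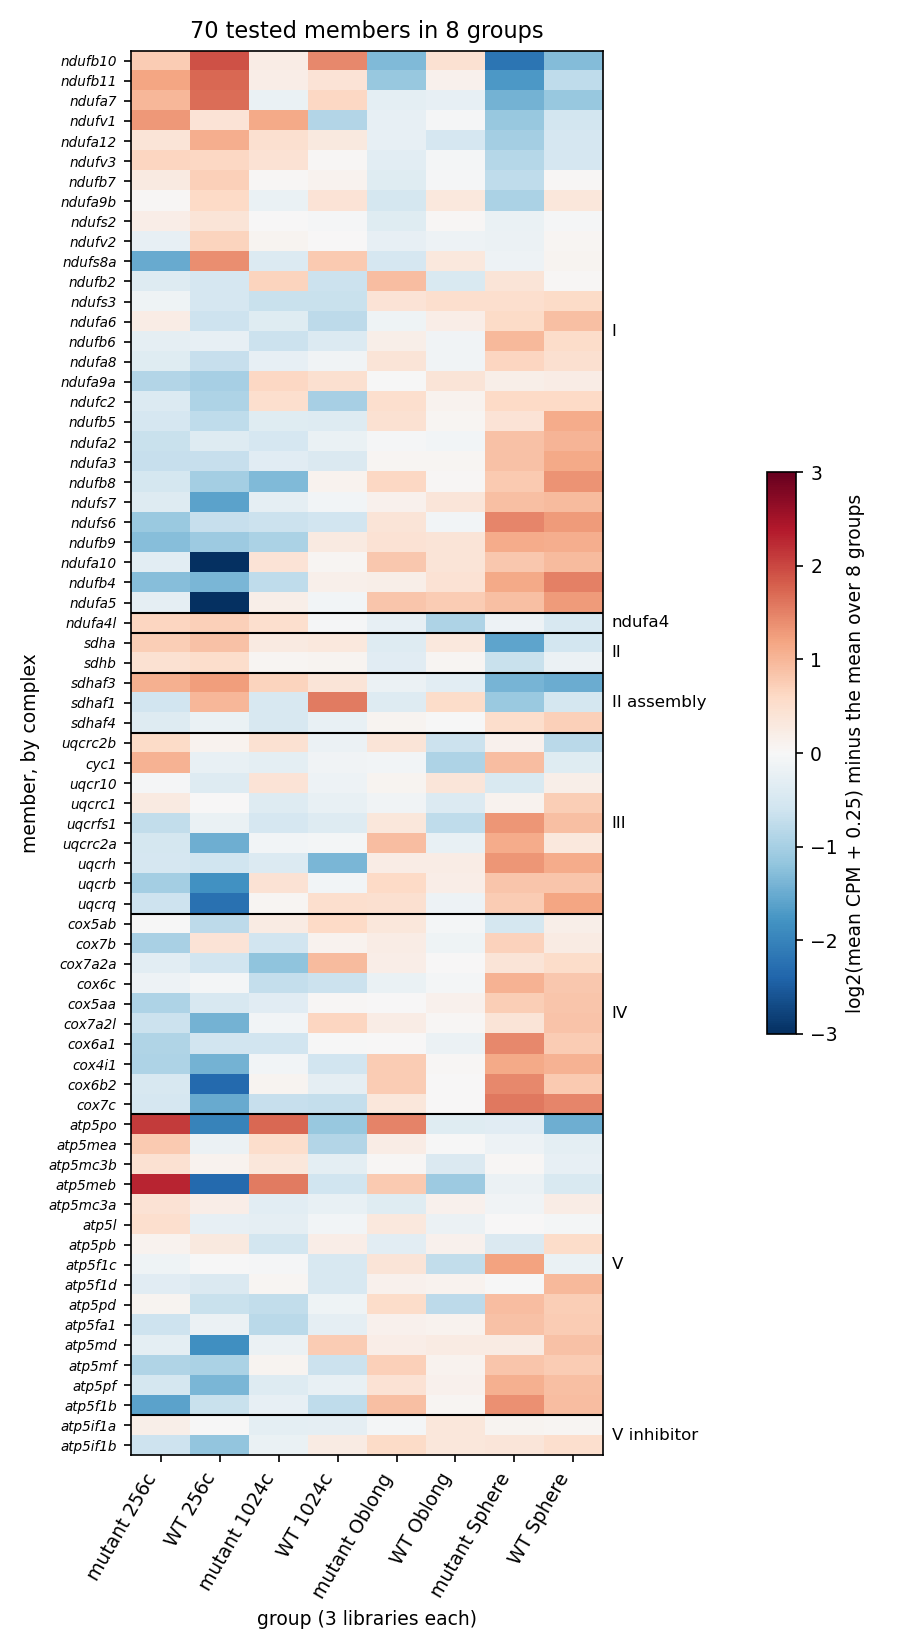
Mean level of each of the 70 tested members in the 8 groups, as log2(mean CPM + 0.25) minus the member's mean over the groups, by complex, with the mutant left of wild type at each stage. Colours are capped at 3 on this scale. Complex IV is mostly red at Sphere, complex I holds both kinds of course, and atp5po and atp5meb are red in the mutant and blue in wild type at 256c.

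Called falls shared by both genotypes numbered 5, and 4 of these were in complex I. ndufb10 had 0.112, 0.0468 and 0.0835 CPM at Sphere in the mutant, against 3.01, 0.633 and 3.26 CPM at 256c (log2 fold change -4.63, SE 0.79, adjusted p = 0.000495). In wild type it had 0.636, 0.282 and 0.181 CPM at Sphere, against 6.11, 7.50 and 2.71 CPM at 256c (-3.93, SE 0.71, adjusted p = 0.000389). The stages were clearly apart, and both calls held in each fit without 1 library. With library totals, where most genes moved up, the mutant fall was still called (-2.25, adjusted p = 0.0427) and the wild type one was not (-1.29, adjusted p = 0.190). The other shared falls, named after their values were seen, were ndufa7, ndufa12 and ndufb11 of complex I and sdhaf3, an assembly factor of complex II. Scaled by library totals, ndufa12 was higher at Sphere in both genotypes, with log2 fold changes of 0.50 in the mutant and 1.00 in wild type. Its fall was also lost by DESeq2 and without the filter in both genotypes. In fits without 1 library its call was kept in 3 of 6 in the mutant and 2 of 6 in wild type.

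The leading gene of complex II, sdha, fell in the mutant. It had 5.27, 2.44 and 3.92 CPM at Sphere in the mutant, against 28.4, 17.6 and 15.2 CPM at 256c (log2 fold change -2.39, SE 0.64, adjusted p = 0.00491, and -0.14 with adjusted p = 0.894 scaled by library totals). For wild type the values were 15.1, 6.37 and 3.21 CPM at Sphere, against 22.3, 23.2 and 22.9 CPM at 256c, and just missed the threshold (-1.47, SE 0.63, adjusted p = 0.0542). All Sphere libraries lay below all 256c libraries in both genotypes. The iron-sulfur subunit gene sdhb was not called in either. Falls called in the mutant and not in wild type were those of sdha, ndufv1, ndufv3 and atp5po, and the reverse held for sdhaf1. With library totals the fold changes of ndufv3 (0.95) and sdhaf1 (0.043) had the other sign. The mutant fall of ndufv3 was lost in 5 of 6 fits without 1 library, by DESeq2, without the filter and with the replicate block. The wild type fall of sdhaf1 was lost under 4 of 5 other settings. For atp5po the fall was lost by DESeq2 (adjusted p = 0.0595), without mutant 256c replicate 2 (adjusted p = 0.0995) and without Sphere replicate 2 or 3 (0.0747 or 0.0570).

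Called courses ran in opposite directions in 2 members. atp5meb fell in the mutant, with 2.41, 2.81 and 2.003 CPM at Sphere against 15.7, 16.1 and 11.4 CPM at 256c (-2.58 on the log2 scale, SE 0.69, adjusted p = 0.00492, and -0.37 with adjusted p = 0.724 scaled by library totals). In wild type it rose, from 3 counts at 256c, with a ratio of 7.20 (interval 2.41 to 35.3, adjusted p = 0.0303). The wild type rise was lost without 256c replicate 1 or 3 (adjusted p = 0.138 or 0.0637) and without Sphere replicate 2 or 3 (0.0845 or 0.0764). The second member, ndufs8a, rose in the mutant (1.54, SE 0.58, adjusted p = 0.0325) and fell in wild type (-1.36, SE 0.54, adjusted p = 0.0414). Its wild type fall was lost in each of the 6 fits without 1 library, with adjusted p from 0.0692 to 0.188. With library totals its wild type log2 fold change was 1.34, above 0 and not called. The mutant rise was lost without 256c replicate 1 or 2 (adjusted p = 0.152 or 0.0867) and without Sphere replicate 1 or 2 (0.0642 or 0.126).

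**Figure D5:**
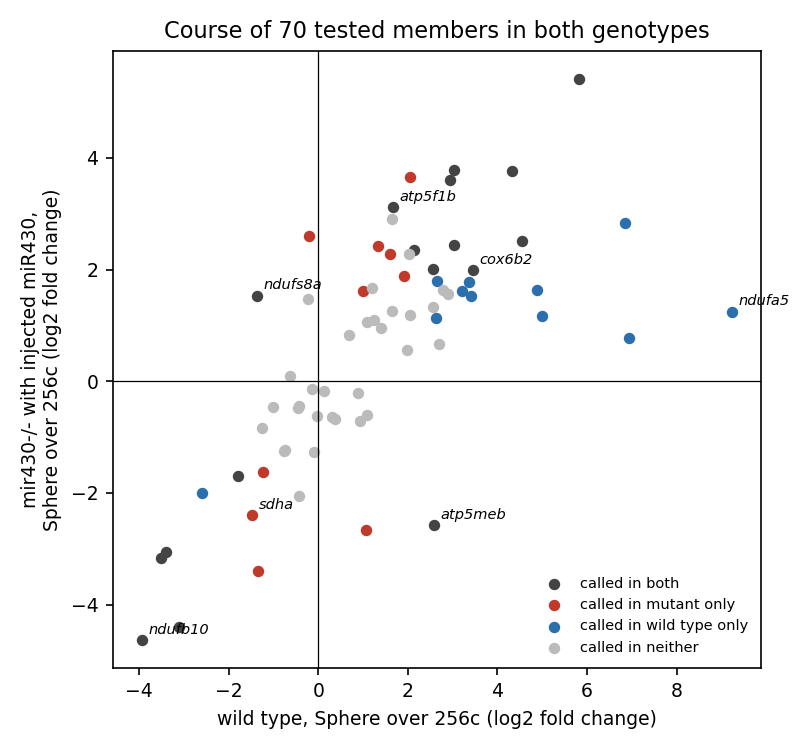
Log2 fold change from 256c to Sphere of the 70 tested members, with wild type on the x axis and the mutant on the y axis, coloured by the genotypes in which the member was called. Called members in both genotypes number 15 of like sign and 2 of opposite sign, atp5meb at -2.58 in the mutant and 2.58 in wild type, and ndufs8a at 1.54 in the mutant and -1.36 in wild type.

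Whether the course differed between genotypes was tested as an interaction. By edgeR 0 members were called in either direction, and 6 had an unadjusted p under 0.05. Over all genes tested, 0% were called higher and 0.0136% lower. The difference, mutant minus wild type, was -5.16 for atp5meb (SE 1.16, adjusted p = 0.0692), 2.89 for ndufs8a (SE 0.80, adjusted p = 0.0931) and -7.98 for ndufa5, a value that rests on 0 counts in wild type at 256c (adjusted p = 0.103). DESeq2 called these 3, with adjusted p of 0.00512, 0.00528 and 0.0308. Of all 14732 genes it called 119 higher and 394 lower, against 1 higher and 2 lower among the 70 members tested. By edgeR, atp5meb was called without wild type Sphere replicate 1 (adjusted p = 0.0221), and atp5meb and ndufa5 without mutant 256c replicate 1 (0.0378 and 0.0433). atp5meb was also called in edgeR fits without the filter, with library totals or with the replicate block (adjusted p = 0.00136, 0.0119 and 0.0170). ndufa5 was called without the filter and with library totals (0.00401 and 0.0225). These fits and that of DESeq2 used all 24 libraries. Of all genes, 33 were called higher and 646 lower without the filter, 15 and 443 with library totals, and 28 and 87 with the block. The difference was therefore past the threshold for some members under some settings and not in the main edgeR fit.

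Genes around the respiratory chain were read from lists of other mitochondrial functions. The 13 mitochondrially encoded subunits, the partners of the members in complexes I, III, IV and V, all fell from 256c to Sphere in both genotypes on the TMM scale, with a median log2 fold change of -3.41 in the mutant and -3.83 in wild type. The median of the nuclear-encoded members was above 0 in both. With library totals, 4 of the 13 were called lower in the mutant and 6 in wild type, and none higher. Between genotypes, 0 were called at any stage by edgeR or DESeq2, and 0 had an unadjusted p under 0.05.

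Assembly factors, which insert cofactors or join subunits and are not part of the finished complexes, held more falls than rises on the TMM scale. Of 28 tested, 2 rose and 11 fell in the mutant, and 3 rose and 9 fell in wild type, with a median of -0.69 in the mutant and -0.88 in wild type. Over all genes tested, 26.8% were called higher and 22.4% lower in the mutant, and 30.7% and 16.2% in wild type. With library totals 10 of the 28 were called higher and 0 lower in the mutant, and 12 higher and 0 lower in wild type. On that scale 8735 of all 14732 genes were called higher and 90 lower in the mutant, and 9556 and 15 in wild type. The split there is thus no rise relative to most genes. Rises included atpaf1, which assembles the ATP synthase head, from 3 counts in wild type at 256c (ratio 31.6, interval 10.7 to 154, adjusted p = 0.00403), and ttc19, a complex III factor (ratio 58.6, interval 10.4 to 2319, adjusted p = 0.00145). Falls in the mutant included atpaf2, the partner of atpaf1 (log2 fold change -3.49, adjusted p = 0.00328), and the complex IV factor coa7 (-3.48, adjusted p = 0.00242). Between genotypes, 0 assembly factors were called at any stage by edgeR or DESeq2, and at an unadjusted p under 0.05 there were 4 at each of 256c, 1024c and Oblong and 2 at Sphere.

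Of 11 tested genes for cytochrome c and coenzyme Q, 2 rose and 2 fell in the mutant and 1 rose and 3 fell in wild type from 256c to Sphere, few genes to set against the shares over all genes just given. The cytochrome c gene cycsb was the wild type rise (2.63, SE 0.89, adjusted p = 0.0200). coq2, an enzyme of coenzyme Q synthesis, was the single one called between genotypes, with 1 count in the mutant at 256c and a wild type to mutant ratio of 16.4 (interval 2.27 to 719, adjusted p = 0.0326). In the TCA cycle list, with 15 tested, pdha1a of pyruvate dehydrogenase and the fumarase gene fh rose in the mutant at 256c, with ratios of 31.5 (interval 8.53 to 263) and 24.1 (interval 4.11 to 974) and adjusted p of 0.00372 and 0.00890. In the same list 2 genes were lower at 256c, and 1 at each later stage. The one at 1024c was suclg2, with 5 counts in the mutant and 110 in wild type (log2 fold change -4.34, adjusted p = 0.0128). Of all genes, 6.6% were called higher and 2.87% lower at 256c. From 256c to Sphere, 2 of the list rose and 5 fell in the mutant, and 3 rose and 2 fell in wild type. The mutant falls included idh3a (-3.17, adjusted p = 0.00778).

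Of 10 tested regulators of mitochondrial biogenesis, 3 rose and 4 fell in the mutant and 3 rose and 2 fell in wild type over the course, against 26.8% and 22.4% of all genes in the mutant and 30.7% and 16.2% in wild type. In this list 0 were called between genotypes by edgeR, with 1 at an unadjusted p under 0.05 at each of 256c, 1024c and Oblong. DESeq2 called 1 lower at 256c and 1 at 1024c. Of all 14732 genes it called 1435 higher and 602 lower at 256c, and 522 and 404 at 1024c. gabpa, an ETS factor known to bind promoters of respiratory genes in mammals, rose in wild type (4.997, SE 0.81, adjusted p = 0.000203). yy1a rose from 1 count there (ratio 246, interval 44.1 to 9729, adjusted p = 0.000472), while its copy yy1b fell in the mutant (-2.87, SE 0.68, adjusted p = 0.00245).

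In the 4 wild type libraries without IAA, 1 per stage, the members held 223, 284, 213 and 1048 counts at 256c, 1024c, Oblong and Sphere. Their shares of nuclear counts were 0.214% (95% Clopper-Pearson interval 0.187 to 0.244), 0.193% (0.171 to 0.217), 0.162% (0.141 to 0.185) and 0.164% (0.155 to 0.175), intervals that cover counting error only. At 256c and Oblong the share lay within the range of the 3 wild type IAA libraries of the stage, and at 1024c and Sphere it lay above all 6 IAA libraries of the stage. With 1 such library per stage there is no test.

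Counts of some members depend on neighbours. In the deposited annotation 16 members share exonic bases with another gene, 6 with one on the same strand and 11 with one on the opposite strand. ndufs1, the largest core subunit of complex I, shares 2471 of its 2515 exonic bases with ino80db on the same strand and had 2 counts in all, so its level is not measured here. ndufb11 shares 542 of 816 bases with rhoaa, which had 3068 counts against its 180. The headings of the count table say that reads in the proper orientation were counted. Of the genes named above, ndufa9a, ndufb4, cox6a1, cox7a2l, cox8a, atp5f1e, atp5mc3a, atp5mf, atp5md and atp5if1b overlap a gene on the opposite strand. Both uqcrb and sdhaf1 overlap one on their own strand. In the authors' deposited table of genotype comparisons, 86 members were listed, and the same 4 were called at 256c, with log2 fold changes of 4.52 for atp5meb, 3.605 for atp5po, 3.47 for ndufa5 and -2.85 for ndufs8a. That table called 0 members at 1024c, Oblong and Sphere. Its calls were stricter than the threshold of 0.05 used here. Left uncalled there were ndufa10 at 256c (authors' adjusted p = 0.0359), atp5meb and atp5po at 1024c (0.0334 and 0.0384) and ndufb10 at Oblong (0.0458).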

How the data were processed

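The authors deposited raw counts of reads per gene, not normalized, which the file headers describe as filtered and in proper orientation without saying what the filter removed. The submitters' processing notes list GRCz11 as build and name HISAT, featureCounts, Trimmomatic, Picard, SAMtools and DESeq2, with no versions. The authors' deposited table gives log2 fold changes, p-values and a mean normalized signal per gene. Its fold changes, standard errors, adjusted p-values and calls were used for comparison alone.

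One edgeR model (4.0.16, limma 3.58.1, R 4.3.3) with 8 group means was fitted to the 24 IAA libraries, with TMM scaling, filterByExpr and quasi-likelihood tests. The standard error (SE) was derived from the quasi-F statistic. DESeq2 (1.42.0), other scalings, no filter, fewer groups, a replicate block and leaving out single libraries were alternatives. The procedure was run on data simulated from its own fitted spread. Changes were set only in genes with at least 5 expected counts in wild type at 256c. The simulation therefore did not cover members near 0 counts there, such as atp5meb, atp5po and ndufa5. The members and lists were chosen with earlier results of these data known. The naming rule took up to 5 called rises and falls per comparison with libraries apart and at least 5 CPM in the higher group, the highest member per kb of each complex, their copies, and up to 2 rises and falls per list. Members named outside it (ndufa5 at 256c among them) were chosen after their values were seen. A bound uses 3 counts over the group at 0, and ratios from 1 to 3 counts carry a 95% interval. Both sum the counts of a group and cover counting error only, not the spread between libraries.

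Replicate numbers were checked as pairs. Same-numbered libraries correlated at 0.109 to 0.192 at Oblong, all over 0.1, and not in all pairs at the other stages (-0.00144 to 0.0894 at 256c, -0.0901 to 0.357 at 1024c, -0.0539 to 0.588 at Sphere). All 24 replicate pairs differed beyond sampling noise (chi-square per degree of freedom 4.19 to 57.3). Of the member identifiers, 93 matched the table of gene names. There 64 had a different symbol, which includes the same name in capitals. No sequences were used here.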

Additional observations from a re-analysis of the deposited data

Results flagged for a closer look

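On the TMM scale, the course of ndufs8a, a core iron-sulfur subunit gene of complex I, ran in opposite directions in the genotypes. Each mutant Sphere library was above each mutant 256c library, and each wild type Sphere library was below each wild type 256c library. This gene was flagged for that separation, which is therefore no further evidence. The share of all genes that separate this way was not taken. Both courses use the 256c libraries, where ndufs8a was already called between genotypes. The difference in the log2 fold change from 256c to Sphere, mutant minus wild type, was 2.89 (SE 0.80, adjusted p = 0.0931 by edgeR over all genes tested, and 0.00528 by DESeq2). With library totals in place of TMM the log2 fold change was above 0 in both genotypes, at 3.76 in the mutant and 1.34 in wild type (adjusted p of the difference 0.282). The wild type fall was lost by DESeq2 (adjusted p = 0.116) and in all 6 fits without 1 library.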

How the results depend on the processing

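Counts of called members moved by over 1.5 times as follows. By DESeq2, 2 members were called higher at 1024c (atp5meb and atp5po), 1 lower at Oblong (ndufb10), 4 lower from 256c to Sphere in wild type, 28 higher in the mutant, and 1 higher and 2 lower in the difference between genotypes. With library totals in place of TMM, 5 were called higher at 256c, with ndufa10 and cox6b2 added; 45 higher and 1 lower over the mutant course, 56 higher and 0 lower over the wild type course, and 2 lower in the difference. The log2 fold changes that reversed on that scale were those of ndufa12 (0.50) and ndufv3 (0.95) in the mutant and ndufa12 (1.00), ndufs8a (1.34) and sdhaf1 (0.043) in wild type. That scaling moved the median of all genes at 256c to 0.96, against 0.24. At 256c it called 1901 of all 14732 genes higher and 185 lower. Over the course it called 8735 higher and 90 lower in the mutant, and 9556 and 15 in wild type. In the difference between genotypes it called 15 higher and 443 lower. Without the filter, 1 was called higher at 1024c, 4 lower over the wild type course and 2 lower in the difference. With only the groups compared, where 18 to 66 members were tested, 1 was called higher at 256c, 1 lower at Oblong, and 10 higher and 2 lower over the wild type course. In that fit at 256c, atp5po and ndufa5 did not pass the filter and were not tested. Their tests at 256c thus rest on the filter over all 24 libraries. With the replicate block, 1 was called lower in the difference, atp5meb (-5.03, adjusted p = 0.0170). At Oblong, where same-numbered libraries correlated weakly (0.109 to 0.192), it called 0 higher and 0 lower, as without it. Whether the numbers mark a shared clutch or day is not stated. The block moved no other of these counts by over 1.5 times.

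Leaving out 1 library gave 1 to 4 members called higher at 256c (1 without wild type replicate 1 or 2), 0 to 1 higher at 1024c, 6 to 29 higher and 7 to 9 lower over the mutant course, 11 to 26 higher and 3 to 7 lower over the wild type course, and 0 to 2 lower in the difference. The cause was not tested. As shares of all counts, members held 0.00802% in the mutant and 0.00444% in wild type at 256c, 0.00905% and 0.00779% at 1024c, 0.0170% and 0.0136% at Oblong, and 0.0475% and 0.0410% at Sphere. Of single called members over all settings, 523 values kept direction and call, 151 kept direction and lost the call, and 5 reversed. At 256c the members had 297 to 436 counts in each wild type library, which limits detection there.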
